A study of Oreochromis niloticus with 12 samples.

Results

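Messenger RNA of 7 genes of mitochondrial fatty acid oxidation was measured in fast muscle of Nile tilapia (*Oreochromis niloticus*). The genes were taken by their NCBI symbols, cpt2, acadvl, acadm, hadhab, hadhb, etfa and etfdh. They were chosen with earlier results of these data known, and all 7 were present among the 42609 genes of the count tables. The filter on low counts was passed by 6 of the 7, and by 8425 genes in all, whereas etfdh did not pass it. No DNA or protein sequence of the members was used here, so they are described by their counts alone.

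The study compared 6 wild females (W) with 6 females of the first generation under domestication (D), all of them 5 months old. Wild and domesticated fish were matched by descent, each D fish having its wild progenitor in the W library of its own number (53, 63, 66, 68, 70 or 72). No drug, transgene or gene deletion was applied to either group, and 1 piece of muscle tissue was sequenced per library after removal of ribosomal RNA. Levels are given as CPM, counts scaled to a fixed library size. The size of a library was its sum over tested genes times a TMM factor, which allows for the room that very abundant genes take up, and a pseudocount of 0.5 was added to each count.

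Fatty acids reach the matrix of the mitochondrion as acyl-carnitines, and carnitine palmitoyltransferase 2 (cpt2) turns them back into acyl-CoA. Each turn of the β-oxidation spiral then removes an acetyl-CoA by 4 reactions: an acyl-CoA dehydrogenase (acadvl for very long chains, acadm for medium chains), a hydratase, a hydroxyacyl-CoA dehydrogenase and a thiolase. The trifunctional protein, with α subunits from hadhab and β subunits from hadhb, carries out the last 3 of these for long chains. Electrons of the acyl-CoA dehydrogenases pass to the electron transfer flavoprotein (etfa and etfb), then to its membrane-bound oxidoreductase (etfdh) and on to the respiratory chain. Red muscle of fish depends on this pathway more than white, fast muscle does.

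The libraries held 3395622 to 8472454 gene counts in wild fish and 4312367 to 8478988 in domesticated fish. These totals leave out the entries for several alignments (a mean of 51.5%), for a fit to several features (13.4%) and for no feature (11.2%). Shares are of the gene counts plus all entries left out, and not of the reads sequenced. The share in no feature was 7.93% to 19.4% in wild fish, highest in W70 and next in W66 (14.3%), and 6.98% to 13.7% in domesticated fish. Genes with a count numbered 19580 to 27906 in wild libraries, with the most in W70, and 17096 to 19810 in domesticated libraries. The bearing of these differences on the calls was not tested. TMM factors were 0.614 to 1.81, the largest being those of the wild libraries W66 (1.63) and W70 (1.81). Of the defining fast-fibre genes, mylpfa (a fast myosin light chain) at 10140 to 60840 CPM and ckma (muscle creatine kinase) at 17680 to 82150 CPM were abundant in every library. Both were lowest in W66 (10140 and 20610 CPM) and W70 (15250 and 17680 CPM). The other defining fast-fibre genes were tnnc2, which was not in the tables, and atp2a1, which has 2 annotated transcripts and had 0 to 17 counts per library. Liver markers, of which 4 of 13 listed were in the tables and 1 was at 0 throughout, summed to no more than 4.69 CPM. The defining liver markers, the apoa1 and alb genes, were not in the tables. A level in bulk tissue does not separate fewer cells of a type from less RNA per cell, which cannot be told apart here.

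Of the 6 tested members, hadhab alone was called higher in domesticated fish, and none was called lower. Called means an adjusted p under 0.05 in limma (Benjamini-Hochberg over all 8425 genes). By this rule 6.69% of all tested genes were higher and 6.5% lower in domesticated fish. The median log2 fold change, domesticated over wild, was 0.59 over the 6 tested members and -0.02 over all tested genes. In 2.87% of all tested genes every domesticated library lay above every wild library, and 0 of the 6 tested members did so.

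**Figure D1:**
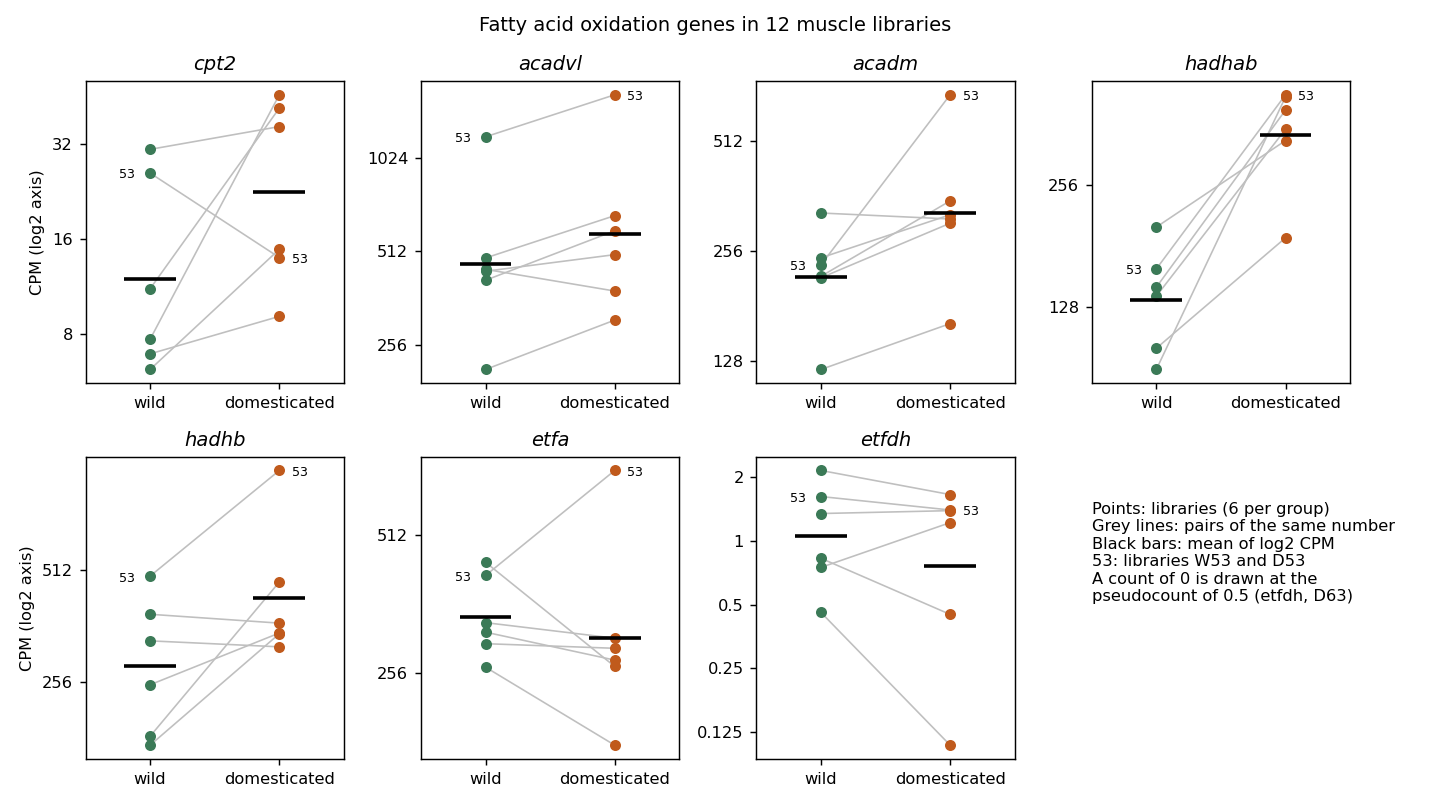
Level of each of the 7 genes in CPM (vertical, log2 axis) in wild (green) and domesticated (orange) libraries, 6 per group. Grey lines join the libraries of a pair, and black bars mark the mean of log2 CPM. The hadhab lines rise in all 6 pairs, and the libraries of pair 53 stand at the top of both groups for acadvl and hadhb.

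The entry step was represented by cpt2, the most scattered of the tested members. In wild fish cpt2 stood at 25.9 CPM in W53, 6.15 in W63, 6.90 in W66, 11.1 in W68, 7.67 in W70 and 30.8 in W72. In domesticated fish it stood at 13.9 CPM in D53, 14.8 in D63, 9.07 in D66, 41.6 in D68, 45.9 in D70 and 36.3 in D72. The groups overlapped, with W53 and W72 at levels above those of D53, D63 and D66, and each group had about a 5-fold range (5.00 and 5.06). The level was higher in the domesticated fish of 5 of 6 pairs and lower in pair 53. The log2 fold change of cpt2 was 0.92 ± 0.49 (SE) with a 95% interval of -0.13 to 1.97, and it was not called (limma adjusted p = 0.228, exact two-sided permutation p = 0.147). Counts of cpt2 were 33 to 247 per library, so that counting error adds to its scatter. Without both libraries of pair 53 its log2 fold change was 1.28 (limma adjusted p = 0.123), and without W66 and W70 it was 0.57 (limma adjusted p = 0.579).

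The other genes of fatty acid uptake, activation and the carnitine shuttle included none that was called. Of 36 symbols listed for this step, 23 were in the tables and 7 passed the filter, cpt2 among them, with a median log2 fold change of 0.34. The gene closest to the threshold was fabp3, the fatty acid-binding protein of heart and muscle, at 20.4 to 86.9 CPM in wild and 52.7 to 135 CPM in domesticated fish. It was higher in the domesticated fish of all 6 pairs (log2 fold change 0.93 ± 0.33, limma adjusted p = 0.0742), and with the pair number as a block its limma adjusted p was 0.0307. Carnitine O-acetyltransferase (cratb), a buffer of acetyl groups, had a log2 fold change of -0.27 ± 0.31, and the carnitine transporter gene slc22a16 had -0.60 ± 0.43. Malonyl-CoA decarboxylase (mlycd), which removes an inhibitor of carnitine palmitoyltransferase 1, had 0.34 ± 0.47, and aldh9a1b, an aldehyde dehydrogenase of carnitine synthesis, had 0.41 ± 0.32. None of these 4 was called. The acyl-CoA synthetase gene acsl3b was lower in the domesticated fish of all 6 pairs and was not called (-1.025 ± 0.51, limma adjusted p = 0.189). It has 2 annotated transcripts and had 2 to 41 counts per library.

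Carnitine palmitoyltransferase 1, the regulated enzyme before cpt2, could not be tested. Its genes cpt1ab and cpt1b have 3 and 4 annotated transcripts, and their mean levels were 0.595 and 0.0829 CPM. The counts were made per transcript, and protein-coding genes with several transcripts rarely passed the filter. It was passed by 42.8% of the protein-coding genes with 1 transcript, by 7.35% of those with 2 and by 6.43% of those with 3 or more. Low values of such genes therefore do not give their true level, and the tested members all have 1 annotated transcript. The limit also holds for pcxb, pdk4 and col1a1b, named below, with 4, 4 and 2 annotated transcripts, and for acsl3b, esrrga, ppargc1a and etfdh.

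Of the acyl-CoA dehydrogenases, acadvl showed a wide range between fish of the same group and no called difference between groups. In wild fish acadvl stood at 1195 CPM in W53, 214 in W63, 448 in W66, 414 in W68, 488 in W70 and 442 in W72. In domesticated fish it stood at 1631 CPM in D53, 308 in D63, 382 in D66, 596 in D68, 667 in D70 and 499.9 in D72. Both libraries of pair 53 were far above the rest of their group and both libraries of pair 63 were the lowest, whereas the other 4 wild fish lay close together. The groups overlapped over most of their range. The log2 fold change of acadvl was 0.32 ± 0.42 with a 95% interval of -0.59 to 1.22 (limma adjusted p = 0.657, exact two-sided permutation p = 0.513), and 5 of 6 pairs were higher in the domesticated fish. Without pair 53 the log2 fold change was 0.29 (limma adjusted p = 0.559).

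The medium-chain enzyme acadm was less scattered, apart from D53. In wild fish acadm stood at 234 CPM in W53, 121 in W63, 216 in W66, 245 in W68, 218 in W70 and 325 in W72. In domesticated fish it stood at 683 CPM in D53, 162 in D63, 304 in D66, 321 in D68, 350.4 in D70 and 313 in D72. D53 stood far above the next domesticated fish, and the lowest fish of both groups were again those of pair 63. The log2 fold change of acadm was 0.58 ± 0.32 with a 95% interval of -0.10 to 1.26, and it was not called (limma adjusted p = 0.242, exact two-sided permutation p = 0.123). Leaving out pair 53 lowered the log2 fold change to 0.38 (limma adjusted p = 0.419). The ratio of acadvl to acadm within a library was 1.36 to 5.10 in wild fish, with a median of 1.92, and 1.25 to 2.39 in domesticated fish, with a median of 1.88. W53 alone lay above 2.39, so that in this wild fish acadvl was high without a like rise of acadm.

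The α subunit of the trifunctional protein, hadhab, was the member called higher. In wild fish hadhab stood at 159 CPM in W53, 101 in W63, 136 in W66, 143 in W68, 89.9 in W70 and 202 in W72. In domesticated fish it stood at 428 CPM in D53, 190.0 in D63, 352 in D66, 393 in D68, 423 in D70 and 330.2 in D72. The groups overlapped only through W72, which was above D63, and hadhab was higher in the domesticated fish of all 6 pairs. Means were 139 ± 40.5 CPM (SD, n = 6) in wild and 353 ± 88.6 CPM (SD, n = 6) in domesticated fish. The log2 fold change of hadhab was 1.35 ± 0.27, a 2.55-fold rise, with a 95% interval of 0.78 to 1.92 (limma adjusted p = 0.00727, exact two-sided permutation p = 0.00433 over 924 regroupings, where the smallest possible is 0.00216). For this and every other member the regroupings were free over all 12 libraries and did not keep the pairs.

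The call of hadhab held without pair 53 (log2 fold change 1.33, limma adjusted p = 0.0124), without W66 and W70 (1.23, limma adjusted p = 0.0397) and with any single library left out (1.24 to 1.54, limma adjusted p = 0.00519 to 0.0238). It was lost when libraries were scaled by their totals without TMM factors (0.94, limma adjusted p = 0.129) or by totals without the 10 most abundant genes (1.02, limma adjusted p = 0.0598). Under these scalings the median of all tested genes moved to -0.42 and to -0.34 on the log2 scale. The distance of hadhab from that median was 1.37 in each, as in the main fit, because a scaling shifts all genes of a library alike. That distance could not have changed and is no test of the call.

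The β subunit, hadhb, was not called. In wild fish hadhb stood at 492 CPM in W53, 252 in W63, 184 in W66, 330.3 in W68, 174 in W70 and 389 in W72. In domesticated fish it stood at 941 CPM in D53, 347 in D63, 474 in D66, 318 in D68, 345 in D70 and 368 in D72. D53 was again far above its group, and W53 was the highest wild fish, above every domesticated fish but D53. The log2 fold change of hadhb was 0.60 ± 0.33 with a 95% interval of -0.10 to 1.31 (limma adjusted p = 0.239, exact two-sided permutation p = 0.121), and 4 of 6 pairs were higher in the domesticated fish. Without W66 and W70, the wild fish with the lowest hadhb levels, it was 0.29 (limma adjusted p = 0.642).

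The ratio of hadhab to hadhb CPM was 0.324 in W53, 0.402 in W63, 0.742 in W66, 0.434 in W68, 0.517 in W70 and 0.519 in W72. In domesticated fish the ratio was 0.455 in D53, 0.548 in D63, 0.742 in D66, 1.23 in D68, 1.23 in D70 and 0.896 in D72. The ratio was lowest in pair 53 within each group, and the medians were 0.476 in wild and 0.819 in domesticated fish. A ratio of CPM is not a ratio of molecules, since transcript lengths were not used, and the difference between the changes of both subunits was not tested.

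**Figure D2:**
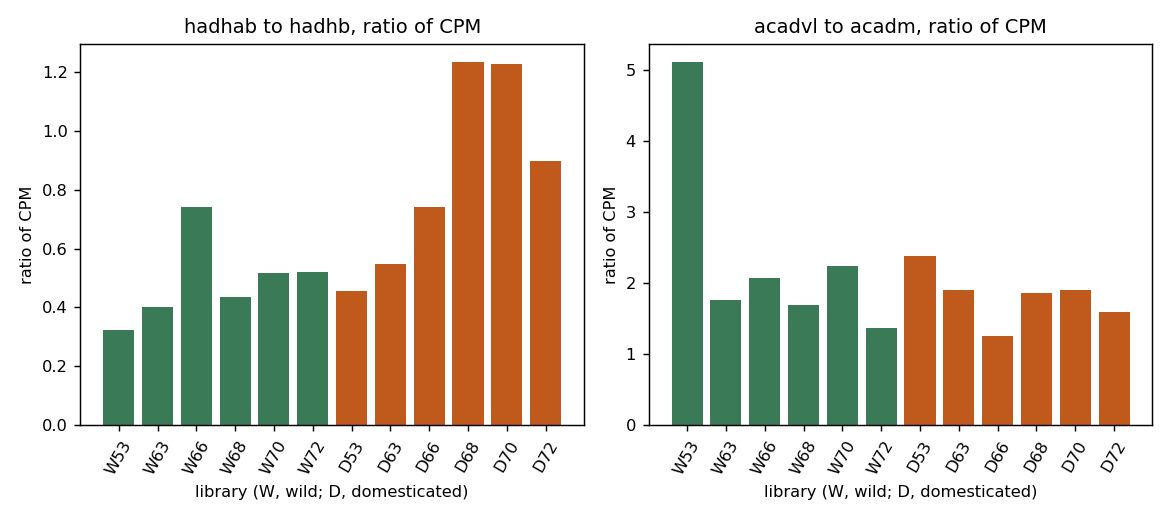
Ratio of hadhab to hadhb CPM (left) and of acadvl to acadm CPM (right) in each library, wild in green and domesticated in orange, with 1 bar per library. The ratio of hadhab to hadhb was 0.896 to 1.23 in D68, D70 and D72, above every wild library, and the ratio of acadvl to acadm was 5.10 in W53 and at most 2.39 elsewhere.

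Tilapia has a duplicate of the α subunit gene, hadhaa, which neighbours hadhb on the same linkage group, whereas hadhab lies on another. The duplicate had 0 to 40 counts per library, against 552 to 3823 of hadhab (not corrected for transcript length), and it did not pass the filter. hadhab gave 96.6% to 100% of the counts of both copies. The highest hadhaa count was in W53. Reads shared by the copies cannot be assigned, and hadhaa and hadhab values are uncertain to that extent.

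At the electron transfer step, etfa was not called, and etfb, its partner subunit, was called higher in domesticated fish. In wild fish etfa stood at 417 CPM in W53, 263 in W63, 329 in W66, 446 in W68, 296 in W70 and 314 in W72. In domesticated fish it stood at 708 CPM in D53, 178 in D63, 304 in D66, 264 in D68, 289 in D70 and 273 in D72. Only in pair 53 was the domesticated fish higher, and the other 5 domesticated fish lay within or below the wild range. The log2 fold change of etfa was -0.15 ± 0.30 with a 95% interval of -0.79 to 0.48 (limma adjusted p = 0.775, exact two-sided permutation p = 0.608), and without pair 53 it was -0.34 (limma adjusted p = 0.371).

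The β subunit gene etfb, which is not one of the 7 members, was at 64.6 to 145 CPM in wild and 132 to 381 CPM in domesticated fish. It was higher in the domesticated fish of all 6 pairs, with a log2 fold change of 1.06 ± 0.30 (limma adjusted p = 0.0311). The call of etfb was lost without W66 and W70 (0.91, limma adjusted p = 0.123) and without W66, W70, D66 or D70 alone (0.96 to 1.06, limma adjusted p = 0.0502 to 0.0661). Whether etfa and etfb differed in their change was not tested.

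Counts of etfdh, the oxidoreductase that hands the electrons to ubiquinone, were too few for the fit. Its 2 annotated transcripts together had 11, 2, 4, 5, 11 and 15 counts in W53, W63, W66, W68, W70 and W72. They had 12, 0, 2, 5, 7 and 9 counts in D53, D63, D66, D68, D70 and D72. The count of 0 in D63 allows a level of up to 0.649 CPM, the worth of 3 counts, for counting error only. The difference in mean log2 CPM was -0.47 (exact two-sided permutation p = 0.591), a value that depends on the pseudocount through D63. No difference of etfdh was detectable with these counts. Counted per transcript, they do not give the true level of etfdh, and the limit for D63 does not bound that level.

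Beyond the members, most other tested genes listed for the β-oxidation spiral and the electron transfer flavoprotein were called higher in domesticated fish. Of the 14 tested genes listed for the spiral, hadhab included, 8 were called higher and 0 lower, with a median log2 fold change of 0.91. Without the members, 11 genes listed for the spiral and the flavoprotein were tested, of which 8 were higher, 0 lower and 3 not called. Their median was 0.99, against -0.02 over all tested genes. The list was written with earlier results of these data known, and its count is a description. It also holds genes of amino acid breakdown. Of the 8 called, ivd, hsd17b10 and acat1 serve that breakdown in whole or in part. The hydratase echs1 and the thiolase acaa2 of the spiral were among the 3 not called.

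That count of 8 rests on the scaling and on several libraries. It was 2 without W66 and W70, 5 without W66, D68 or D72 alone, and 4 without W70, D66 or D70 alone. It was 1 with library totals without TMM factors and 2 with totals without the 10 most abundant genes. It was 7 without pair 53 and 7 with the pair number as a block. All 8 genes kept a positive log2 fold change in each of these fits.

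Among the dehydrogenases, the short-chain enzyme acads was at 33.1 to 70.8 CPM in wild and 62.6 to 128 CPM in domesticated fish (log2 fold change 0.99 ± 0.24, limma adjusted p = 0.0167). The 3-hydroxyacyl-CoA dehydrogenase of medium and short chains, hadh, was at 83.2 to 189 CPM in wild and 203 to 335 CPM in domesticated fish, with no overlap (1.03 ± 0.24, limma adjusted p = 0.0154). acad9 (1.03 ± 0.32, limma adjusted p = 0.0479) is known in mammals also as an assembly factor of respiratory complex I. acad11, a relative of the acyl-CoA dehydrogenases, was near the threshold (0.92 ± 0.29, limma adjusted p = 0.0496). With the pair number as a block its limma adjusted p was 0.0805.

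The largest rises on the list belonged to enzymes that also, or mainly, break down amino acids. hsd17b10, which works on branched short-chain acyl groups from isoleucine, was at 14.3 to 42.2 CPM in wild and 67.0 to 83.8 CPM in domesticated fish (log2 fold change 1.63 ± 0.27, limma adjusted p = 0.0038). ivd, the isovaleryl-CoA dehydrogenase of leucine breakdown, was at 18.7 to 43.2 CPM in wild and 62.5 to 89.5 CPM in domesticated fish (1.37 ± 0.23, limma adjusted p = 0.00387). Neither overlapped between groups. The acetyl-CoA acetyltransferase acat1, which serves ketone bodies and isoleucine, rose by less (0.90 ± 0.27, limma adjusted p = 0.038). The calls of acads, hadh, hsd17b10 and ivd held with any single library left out. That of acad9 held only without W66, W72 or D63, that of acad11 only without W53, W63 or D53, and that of acat1 only without W63, W68 or D53. In the other single-library omissions their limma adjusted p rose to at most 0.102, 0.104 and 0.0748. Not called were the hydratase echs1 (0.63 ± 0.29), the thiolase acaa2 (0.61 ± 0.29) and acad8 of valine breakdown (0.51 ± 0.27).

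**Figure D3:**
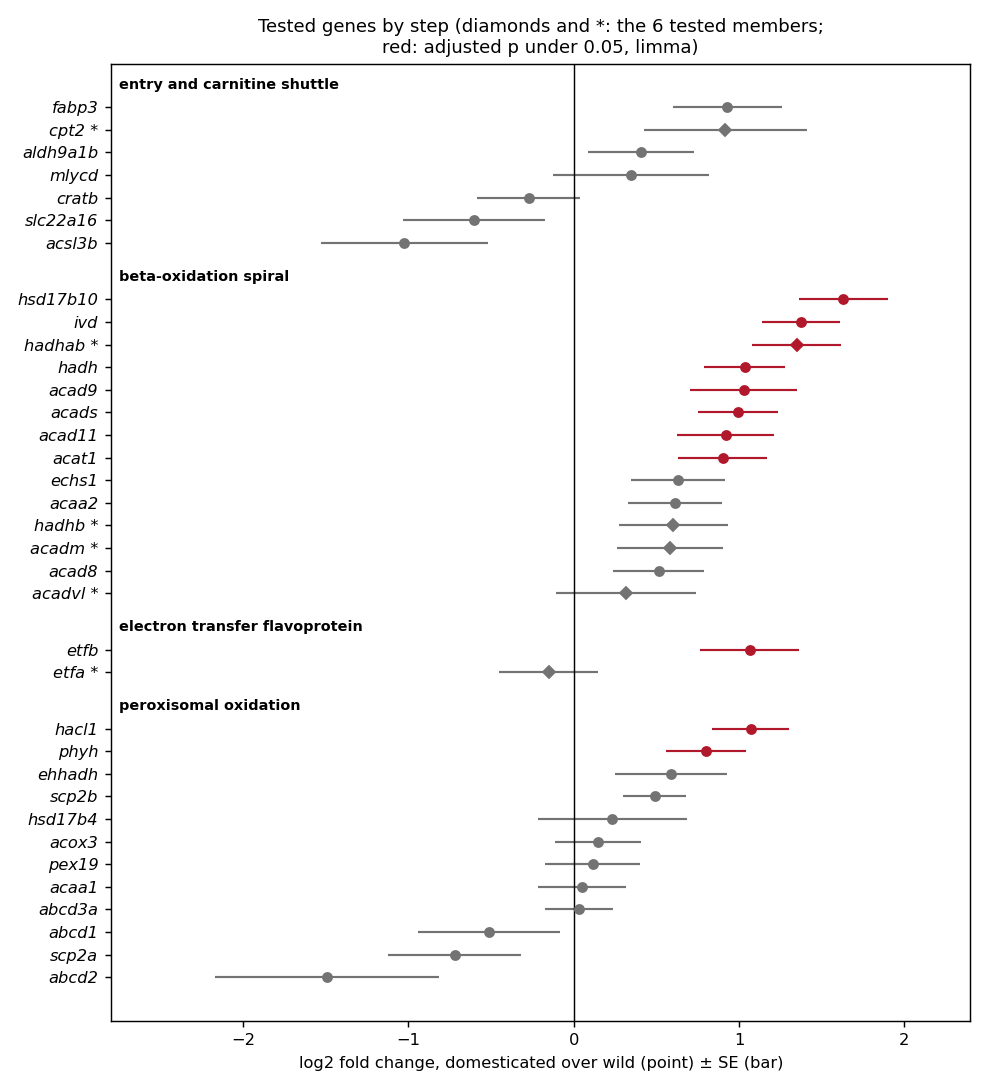
Log2 fold change, domesticated over wild (horizontal), with its SE as a bar, of the tested genes of 4 steps. Diamonds mark the 6 tested members, and red marks an adjusted p under 0.05 in limma. Genes listed for the spiral all lie to the right of 0, from 0.32 (acadvl) to 1.63 (hsd17b10), whereas genes of the entry step lie on both sides. With library totals without TMM factors acadvl turned to -0.09.

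The auxiliary enzymes for unsaturated fatty acids could not be described, since 3 of 5 listed genes were in the tables and 0 passed the filter. Of 12 tested genes of peroxisomal fatty acid oxidation, 2 were higher and 0 lower, with a median log2 fold change of 0.13. These were phyh and hacl1, successive enzymes of the α-oxidation of branched chains (0.80 ± 0.24, limma adjusted p = 0.04, and 1.07 ± 0.23, limma adjusted p = 0.0107). With the pair number as a block phyh was not called (limma adjusted p = 0.0743), and with 1 library left out it stayed called only without W63, D63 or D68 (limma adjusted p of up to 0.09 otherwise). Of the peroxisomal β-oxidation enzymes, acox3 (0.15 ± 0.26), ehhadh (0.59 ± 0.34), hsd17b4 (0.23 ± 0.45) and acaa1 (0.05 ± 0.27) were not called. Nor were the sterol carrier proteins scp2a (-0.72 ± 0.40) and scp2b (0.49 ± 0.19), the peroxisomal transporter abcd3a (0.03 ± 0.20) or the peroxisome assembly gene pex19 (0.12 ± 0.29).

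Of 4 tested genes of ketone and propionate use, 3 were higher and 0 lower. They were oxct1a, which activates ketone bodies for use (1.02 ± 0.24, limma adjusted p = 0.0158), pccb, a subunit of propionyl-CoA carboxylase (1.26 ± 0.24, limma adjusted p = 0.00577), and acss1, a mitochondrial acetyl-CoA synthetase (1.17 ± 0.35, limma adjusted p = 0.04). With 1 library left out acss1 stayed called only without W63, W68 or D53 (limma adjusted p of up to 0.0798 otherwise). The median log2 fold change of the 4 genes was 1.1.

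Of 14 tested regulators of the pathway, 2 were higher and 0 lower, with a median log2 fold change of -0.25. The 2 were dbi, the acyl-CoA-binding protein (1.21 ± 0.28, limma adjusted p = 0.0137), and prkag1, a subunit of AMP-activated protein kinase (0.63 ± 0.20, limma adjusted p = 0.0491, and 0.0917 with the pair number as a block). With 1 library left out prkag1 stayed called only without W63, D63 or D66 (limma adjusted p of up to 0.106 otherwise). Among the 12 that were not called, the nuclear receptor gene esrrga was lower in the domesticated fish of all 6 pairs (-1.18 ± 0.40, limma adjusted p = 0.0646), and with the pair number as a block it was called lower (limma adjusted p = 0.0437). The coactivator genes ppargc1a (-1.08 ± 0.43, limma adjusted p = 0.109) and ppargc1b (-0.89 ± 0.32, limma adjusted p = 0.0772) were lower in the domesticated fish of 6 and 5 pairs. The genes esrrga and ppargc1a have 9 and 11 annotated transcripts, with 10 to 114 and 8 to 81 counts per library. Counted per transcript, these values do not give the true level of either gene.

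Acetyl-CoA and electrons from the spiral enter the citric acid cycle and the respiratory chain. Of 20 tested genes of the cycle and of pyruvate entry, 6 were higher and 0 lower, with a median log2 fold change of 0.64, led by fh (fumarase, 1.73 ± 0.27, limma adjusted p = 0.00293). The next were pcxb (pyruvate carboxylase, 1.23), pdha1a (a subunit of pyruvate dehydrogenase, 1.23) and idh3g (a subunit of isocitrate dehydrogenase, 0.97). Of 16 tested respiratory chain genes, chosen as examples of complexes I, III, IV and V, 10 were higher and 0 lower, with a median of 1.02. The smallest p-values were those of the complex I subunits ndufb8 (1.42), ndufs3 (1.29) and ndufs1 (1.13) and of cytochrome c1, cyc1 (1.18). Complex II genes were listed with the cycle, where sdha, sdhb and sdhc were not called (limma adjusted p = 0.2655, 0.109 and 0.138).

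**Figure D4:**
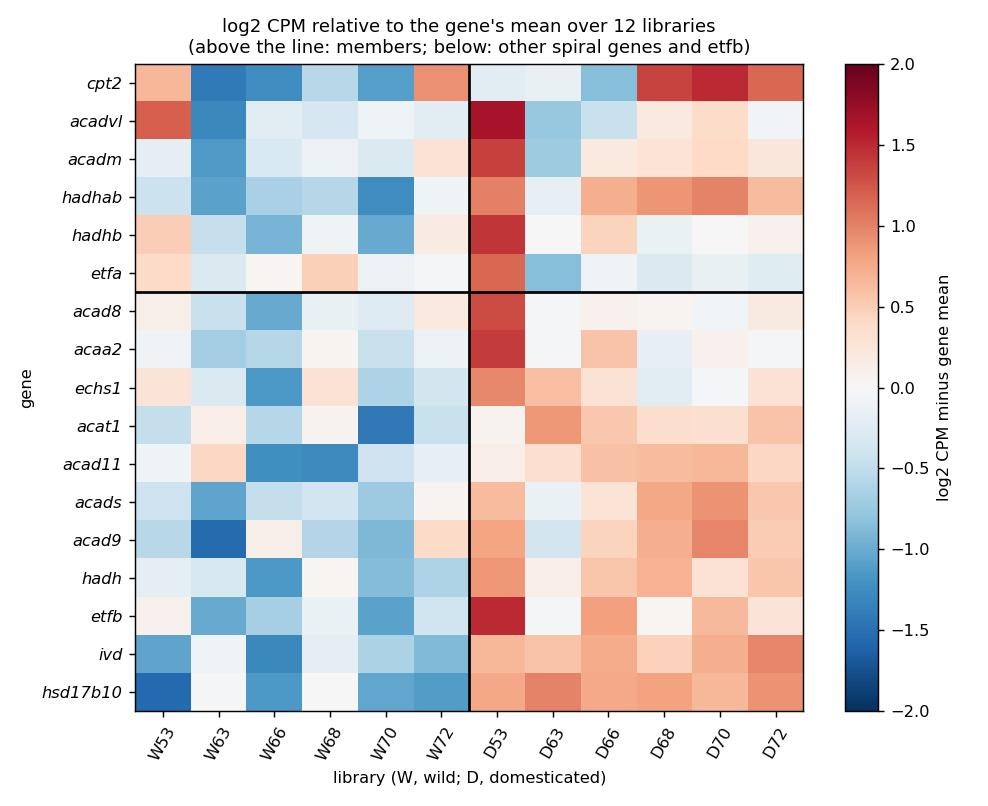
Log2 CPM of the 6 tested members (above the line) and of 11 other genes listed for the spiral and the electron transfer flavoprotein (below) in each library, relative to the gene's mean over 12 libraries. Red is higher and blue lower than the mean, and a vertical line divides wild from domesticated libraries. D53 is red in every member but cpt2, and W63 is blue in all 6.

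Between fish of a group, the members varied to unequal degrees. The SD of log2 CPM within groups was 1.00 for cpt2, 0.82 for acadvl, 0.59 for hadhb, 0.57 for acadm, 0.51 for etfa and 0.43 for hadhab, against a median of 0.59 over all tested genes. cpt2 thus stood at the 87.2 percentile of all tested genes in scatter, and hadhab at the 25.2 percentile.

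Deviations from the group means were alike between several members. Their Pearson r over 12 libraries, which share each library's depth and scaling, was 0.84 for etfa and acadm, 0.79 for etfa and acadvl, 0.79 for hadhab and acadm, and 0.78 for acadm and acadvl. It was -0.02 for cpt2 and etfa. Pair 53 carried part of this. Without its libraries r was 0.74 for etfa and acadm, 0.53 for etfa and acadvl, 0.83 for hadhab and acadm and 0.83 for acadm and acadvl. The group means behind these deviations still included pair 53. For etfa and hadhb r went from 0.75 to 0.36, and for hadhb and acadvl from 0.62 to -0.20.

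Among 5787 other genes ranked, those whose log2 CPM was most like the mean of the 6 tested members were lias, which makes the lipoyl cofactor of mitochondrial enzymes (r = 0.94 over 12 libraries), LOC100705136 (0.94), adprs (0.92), LOC100692119 (0.91) and ireb2, an iron-responsive RNA-binding protein (0.91). By deviations from the group means they were pmpca, a subunit of the peptidase that trims imported mitochondrial proteins (0.98), pdk4, a kinase that inhibits pyruvate dehydrogenase (0.96), fam210ab (0.95), mrpl9 of the mitochondrial ribosome (0.95) and lias (0.94). None of these 9 genes was called (limma adjusted p = 0.174 to 0.995).

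Markers of other fibres and cells moved between groups as well. Of the 17 slow-fibre (red muscle) markers in the tables, 2 were at 0 in every library, and the sum over all was 48.9 to 161 CPM in wild and 157 to 696 CPM in domesticated fish. The highest sum was that of D68, with mb (myoglobin) at 429 CPM and tnni4b.2 (a troponin I) at 221 CPM. The next highest was 249 CPM in D66. The tested slow-fibre markers numbered 6, of which 3 were higher and 0 lower: mb (2.14), casq2 (slow and cardiac calsequestrin, 1.84) and tnni4b.2 (2.88). The other 3 had log2 fold changes below 0 and were not called: atp2a2b, a calcium pump of slow and cardiac muscle (-1.17 ± 0.41, limma adjusted p = 0.071, lower in the domesticated fish of 5 pairs), prox1a (-0.98 ± 0.53) and myl2b (-0.24 ± 0.90). Among other defining slow-fibre genes, smyhc1 was not in the tables and the slow troponin gene tnni1b had 0 to 6 counts per library. Fast-fibre markers, 11 in the tables with 9 tested and 0 called, summed to 57020 to 286000 CPM in wild and 144300 to 251300 CPM in domesticated fish. The lowest of these sums were those of W70 (57020 CPM) and W66 (63210 CPM). All other wild libraries were at 138000 CPM (W72) or more. The bearing of this difference on the calls was not tested. The part of slow fibres in the rise of hadhab, etfb and the other called genes of the spiral list was not tested.

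Matrix and fibroblast markers, 13 in the tables and 1 of them at 0 throughout, summed to 465 to 9351 CPM in wild and 5357 to 27260 CPM in domesticated fish, with 2 of 8 tested called higher (col1a1b and sparc). The highest sums were mostly col1a2, with 6882 of 9351 CPM in W70 and 21600 of 27260 CPM in D66. In the main fit col1a2 was not called (limma adjusted p = 0.0603). With the pair number as a block, col1a2 (2.68, limma adjusted p = 0.0325) and dcn (1.35, limma adjusted p = 0.0217) were called as well. The matrix gene at 0 was the defining marker col1a1a, which has 3 annotated transcripts. Red blood cell markers, 9 in the tables and 2 at 0, summed to 186 to 804 CPM in wild and 379.5 to 1295 CPM in domesticated fish, with 3 of 4 higher (rhag, ank1a and alas2). The largest part of this sum was ank1a, at 97.4 to 591 CPM in wild and 308 to 1088 CPM in domesticated fish. The other tested marker, sptb, had a log2 fold change below 0 and was not called (-0.23 ± 0.35, limma adjusted p = 0.705). Its level was 79.6 to 201 CPM in wild and 44.6 to 188 CPM in domesticated fish. Of the defining red blood cell markers, slc4a1a, which has 2 annotated transcripts, was at 0 throughout. The other, alas2, was at 3.45 to 9.79 CPM in wild and 8.43 to 20.96 CPM in domesticated fish. Adipocyte markers, 9 in the tables and 0 of them at 0 throughout, summed to 108 to 387 CPM in wild and 113 to 327 CPM in domesticated fish, with 2 of 4 higher (dgat2 and fabp4a). The other 2 tested adipocyte markers had log2 fold changes below 0, pnpla2 (-1.44 ± 0.47, limma adjusted p = 0.0565, and called lower with the pair number as a block, limma adjusted p = 0.0453) and lipea (-0.36 ± 0.46). The defining adipocyte markers, plin1 and the adipoq genes, were not in the tables. Leukocyte markers, 11 in the tables and 2 at 0, summed to 979 to 2714 CPM in wild and 1385 to 4660 CPM in domesticated fish, with 1 of 7 lower (cd247). Most of this sum was 1 gene that was not called, lcp1, at 737.5 to 2223 CPM in wild and 1079 to 4327 CPM in domesticated fish. The median log2 fold change of the 7 tested leukocyte markers was -0.57, and the defining marker, ptprc, was not in the tables. The part of these cell types in the values of the members was not tested.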

How the data were processed

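Fast muscle RNA of 12 fish was depleted of ribosomal RNA and sequenced from strand-directional libraries on 1 lane. The deposited tables hold the authors' other values, whole-number read counts per annotated transcript with no normalization. The submitters' processing notes name Trimmomatic 0.33, STAR, HTSeq and edgeR. The genome build, other versions and counting settings were not given in the sources used here. Tables are tab-separated under a comma-separated name and were not read as counts by the check of units in use here, so that no count model was run.

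Each table had 80392 transcripts. Counts were summed per GeneID through the gene table of O_niloticus_UMD_NMBU, which gave 42609 genes. Summary lines (shares in the report) stayed out of all totals. A gene was tested with at least 10 counts, scaled to the median library, in at least 6 libraries and 15 in all. TMM factors were computed with 30% of ratios and 5% of levels trimmed. Log2 CPM (pseudocount 0.5) was fitted with limma 3.58.1 in R 4.3.3 (trend, robust, condition as the single term, two-sided), and fold changes understate those of low genes. Reads carry no molecular identifiers, so limits from counts cover counting error only. Python 3.11.15, pandas 2.3.3, NumPy 2.4.6, SciPy 1.17.1 and matplotlib 3.10.9 were used. The fit was also run on simulated counts, drawn independently for each gene and library and without pairs. That run does not bear on how far the calls reported here hold.

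The members and lists were chosen with earlier results of these data known, and 1 listed gene is not reported here. Named genes were the members, called genes of the pathway, regulator and ketone lists, uncalled ones from 10 CPM of the entry, spiral, auxiliary, flavoprotein and peroxisomal lists, of each remaining list the called genes with the 4 smallest p-values, and the 5 genes most alike the members by each of 2 measures among those from 5 CPM. tnni1b, smyhc1, mylpfa, ckma, tnnc2, atp2a1, slc4a1a, plin1, ptprc, col1a1a and the adipoq, apoa1 and alb genes are named as defining markers, and cpt1ab, cpt1b and hadhaa as untested partners of the members. acsl3b, esrrga, ppargc1a, ppargc1b, atp2a2b, prox1a, myl2b, pnpla2, lipea, col1a2, dcn, lcp1, sptb, sdha, sdhb and sdhc were chosen after their values were seen. Equal numbers mark genetically paired fish per the labels, and the deviations of paired libraries correlated by 0.21, 0.12, 0.046, -0.1, -0.089 and 0.046. The alternatives were other filters, scalings, pseudocounts and limma settings, the pair number as a block, genes with 1 transcript, and each library left out. Leaving out pair 53, or W66 and W70, was chosen after seeing the data.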

Additional observations from a re-analysis of the deposited data

Results flagged for a closer look

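In 5 of 12 looks (6 tested members in 2 groups), 1 library stood far from the other 5 of its group in CPM. The rule was a gap at the end of the range of more than 0.625 of that range. Chance alone gives this in about 1 of 20 groups of normally distributed values, and the rate may not hold for CPM. The gaps were not taken on log2 CPM, where a gap at the high end is a smaller part of the range. W53 held 1195 CPM of acadvl, a gap of 0.721 of the wild range. D53 held 1631 CPM of acadvl (0.728 of the domesticated range), 683.3 CPM of acadm (0.638), 940.9 CPM of hadhb (0.75) and 708.4 CPM of etfa (0.761). The 5 looks share the libraries of 1 pair and are not independent.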

How the results depend on the processing

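hadhab kept its direction under all 25 alternatives and its call under 23. It lost the call with library totals without TMM factors (0.94) and with totals without the 10 most abundant genes (1.02). Under these scalings the acadvl log2 fold change turned to -0.0886 and -0.0103, and the 1112 calls over all genes became 680 (12.8% of them higher, against 50.7%) and 937 (15.7% higher). Without both W66 and W70 there were 292. With each library left out in turn the calls numbered 628 to 1349, and the count was 668 without W66, 696 without W70, 628 without D70 and 648 without D72. The log2 fold changes then ranged over 1.24 to 1.54 for hadhab, 0.73 to 1.2 for cpt2, 0.0289 to 0.59 for acadvl, 0.38 to 0.81 for acadm, 0.39 to 0.77 for hadhb, -0.39 to 0.0297 for etfa and -0.69 to 0.12 for etfdh. Without D63 etfa was 0.0297 and etfdh 0.12, the opposite direction. The 8 other genes of the spiral and flavoprotein lists called higher became 1 with library totals, 2 with totals without the 10 most abundant genes, 2 without W66 and W70, and 4 to 7 with 1 library left out. The cause of these changes was not tested.

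With the pair number as replicate block 1062 genes were called, 911 of them shared with the 1112, and hadhab kept its call (limma adjusted p = 0.0122). The block changed no call of the other members. Without the filter on low counts 786 of 31551 genes were called, and 1112 of 8425 with it. Of the 15 pathway genes called beside hadhab, 0 changed direction under an alternative, and 14 lost the call under library totals. Of the 27 other called genes of the lists, 0 changed direction and 23 lost the call under at least 1 alternative, and of 79 uncalled ones 26 changed sign. The stricter filter, voom, the plain limma fit, the block and the table of genes with 1 transcript gave no value for etfdh. Low counts, and counting by transcript, limit etfdh and carnitine palmitoyltransferase 1.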
